A study of Mus musculus with 6 samples.

Results

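The SR-related proteins of the nuclear speckle were followed in CD4+ T cells that lack CD2BP2/U5-52K, a protein of the U5 snRNP, the particle that holds the exons together during splicing. The group holds 10 genes, Son, Srrm1, Srrm2, Rsrc1, Rsrc2, Pnisr, Clasrp, Srek1, Arglu1 and Scaf11, which were chosen by name from the 56246 genes of the expression table. No measured value entered that choice, but earlier results of these data were known when it was made. All 10 were found in the expression table, and they account for 132 of the 65785 splicing events listed over 5 event classes.

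RNA was sequenced from sorted CD4+ T cells of pooled spleen and peripheral lymph nodes of adult male mice, 3 conditional knockout (cKO) and 3 Control libraries. In cKO (KO_7.8, KO_9.10 and also KO_11.12) U5-52K is f/f with CD4-Cre tg. Control joined 2 genotypes, wt/f with CD4-Cre tg for CTRL_1.2 and CTRL_3.4, and f/f with CD4-Cre- for the remaining library CTRL_5.6, which alone lacked Cre. CD4-Cre acts from the double positive stage in the thymus onward, so deletion can begin before the cells reach the periphery. The paper speaks of separate mice, and what the p-values capture is the spread among the 6 libraries.

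Nuclear speckles are compartments of the nucleus that store and modify splicing factors. SR proteins carry an RNA binding domain and a stretch rich in arginine and serine (the RS domain). SR-related proteins carry an RS-like stretch as well but often lack the RNA binding domain, and they act as scaffolds, coactivators or partners of SR proteins. Many genes of this kind contain exons or alternative splice sites whose use brings in an early stop codon and so lowers the amount of protein.

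The libraries held 56995121 to 82286366 reads in genes. Cd2bp2, the targeted gene, had 2624, 2602 and 2612 normalized counts in the Control libraries and 884, 874 and 738 in the cKO libraries (log2 fold change -1.65, SE 0.11, adjusted p = 0.00137 from limma), the side of the labels in each library. The 10 CD4 T cell markers were present in each library, with summed levels of 595049 to 682858 in Control and 590741 to 634400 in cKO. KO_7.8 stood apart by the sum of its myeloid markers (12 genes, 31488 against 8971 to 13113 in the other libraries, none at 0 throughout) and its cell cycle genes (12 genes, sum 17025 against 5012 to 6692). Of the myeloid markers, Cst3 (16076), Lyz2 (6603), Adgre1 (4043), Csf1r (3128), Fcgr3, Itgam and Cd14 were highest in KO_7.8. Ly6c2 (1010), Mpo (39), Elane (28), S100a8 (12) and S100a9 (7) were not. Hemoglobin genes were highest in CTRL_5.6 and KO_7.8, and so were the sums of the erythroid markers (4064 and 3076 over 5 genes, against 171 to 488 elsewhere). The erythroid markers Alas2 (18 to 34) and Slc4a1 (0 to 4) were low and did not follow. The sums of 2 marker lists did not overlap between the conditions. B cell markers (10 genes) summed to 11073 to 14762 in Control and 5034 to 9492 in cKO, with 8 of the 10 at an unadjusted p under 0.05, and NK cell markers (6 genes) to 15485 to 19888 and 26041 to 30230, with 3 of the 6. Nkg7 made the largest part of the NK sums, with 8690, 12454 and 7082 normalized counts in Control and 17344, 20875 and 19038 in cKO. Ncr1, Gzma and Klrb1c were also higher in cKO (log2 fold changes 1.44, 1.23 and 0.36), while Klrd1 (0.02) and Prf1 (-0.06) hardly differed. None of these genes passed the adjusted test by limma.

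The RNA level of none of the 10 speckle genes passed the test between cKO and Control. At an adjusted p under 0.05 (limma on log2 of normalized count + 1, over 11001 genes), 0 of 10 were called, where 0.973% of all tested genes were. None had an unadjusted p under 0.05 (16.7% of all tested genes had), edgeR and DESeq2 on whole reads also called 0, and with an added requirement of a log2 fold change above 1 in size the share of all genes was 0.564%. In 0 of 10 genes did all cKO libraries lie above or below all Control libraries, where 24.1% of all tested genes showed such a separation. The log2 fold changes ran from -0.17 to 0.14 with a median of -0.04 (0.01 over all tested genes), 4 above and 6 below 0. In bulk RNA, a lower level per cell and fewer expressing cells cannot be told apart.

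The scaffold genes come first by role. Son, whose product organizes the speckle and aids splicing at weak sites, had 54316, 57226 and 40852 normalized counts in Control (here and in what follows in the order CTRL_1.2, then CTRL_3.4, then CTRL_5.6), and 46326, 60963 and 57112 in cKO (KO_7.8, then KO_9.10, then KO_11.12). On the log2 scale this is a fold change of 0.12 (95% interval -0.27 to 0.50, adjusted p = 0.795). Srrm2, which encodes the other large scaffold protein of the speckle, had 33012, 33152 and 20212 in Control and 22162, 31914 and 29368 in cKO (log2 fold change -0.03, interval -0.57 to 0.51, adjusted p = 0.969). In both genes CTRL_5.6 and KO_7.8 were the 2 lowest libraries and the groups overlapped. The same 2 libraries were lowest in 6 of the 10 genes, and in 20.1% of all tested genes. They are also the libraries with the highest hemoglobin signal, and the part of other cells in these values was not tested. Without CTRL_5.6 the difference in Son was -0.03, and without KO_7.8 that in Srrm2 was 0.13, so that the direction of neither is fixed.

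Srrm1, a splicing coactivator that also sits with the exon junction complex, had 25008, 25372 and 21688 normalized counts in Control and 24561, 27108 and 27376 in cKO. The log2 fold change of 0.14 (interval -0.09 to 0.37, adjusted p = 0.545) was the highest of the group. Scaf11, which binds SR proteins and the tail of RNA polymerase II, had 18385, 21493 and 17467 in Control and 17488, 20103 and 21200 in cKO (log2 fold change 0.04, adjusted p = 0.917). The groups overlapped in both genes, and CTRL_5.6 was again the lowest library.

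Srek1, whose product modulates the activity of SR proteins, had the smallest unadjusted p of the group (0.194, limma). It had 4762, 4706 and 4179 normalized counts in Control and 4069, 4195 and 4214 in cKO. CTRL_5.6 at 4179 lay between the cKO values, while the other 2 Control libraries were above all of them (log2 fold change -0.13, interval -0.34 to 0.08, adjusted p = 0.531). Pnisr, which encodes a partner of the speckle protein pinin, had the lowest fold change of the group, with 7416, 5485 and 6373 in Control and 4807, 6402 and 5925 in cKO (log2 fold change -0.17, interval -0.53 to 0.19, adjusted p = 0.640). KO_7.8 was its lowest library and CTRL_1.2 its highest.

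The remaining genes differed as little. Clasrp, named for the association of its product with the kinase CLK4, had 2744, 2534 and 2262 normalized counts in Control and 2278, 2885 and 2994 in cKO (log2 fold change 0.11, adjusted p = 0.765). Rsrc1, an SR-related factor linked to the choice of the 3′ splice site, had 3003, 2859 and 2949 in Control and 2589, 2867 and 2889 in cKO (log2 fold change -0.08, adjusted p = 0.724). Its groups overlapped through CTRL_3.4, the lowest Control library. Rsrc2, a related gene whose product holds RS repeats and a coiled coil, had 7076, 5625 and 7455 in Control and 5960, 6794 and 6383 in cKO (log2 fold change -0.07, adjusted p = 0.851). Arglu1, which encodes a coactivator of transcription that also modulates splicing, had 5786, 4779 and 5410 in Control and 4989, 5262 and 5181 in cKO (log2 fold change -0.05, adjusted p = 0.871). In Rsrc2 and Arglu1 the Control library CTRL_3.4 was the lowest of all 6.

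**Figure D1:**
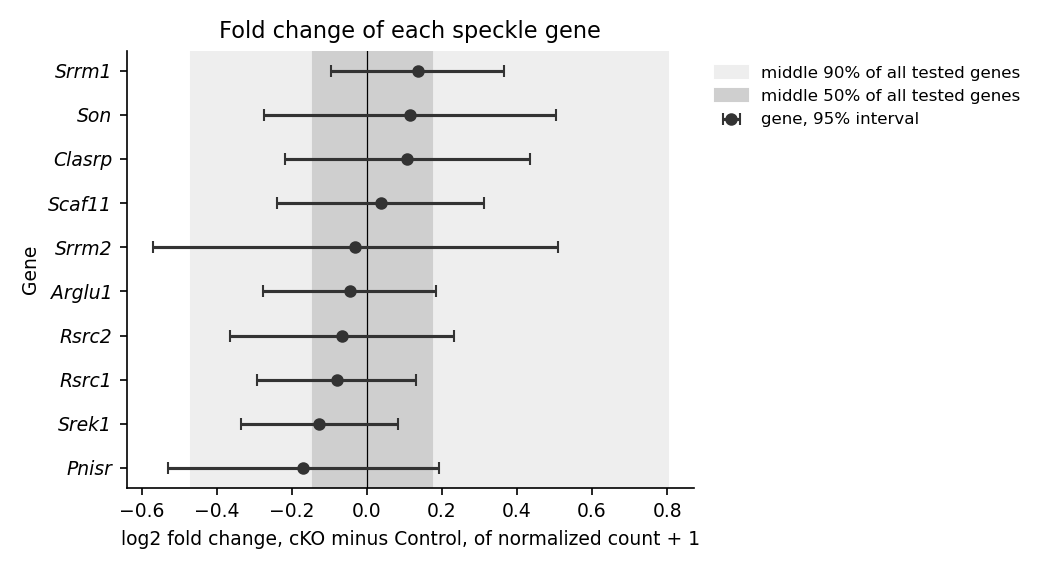
Log2 fold change (cKO minus Control, normalized count + 1) of each speckle gene with its 95% interval from limma, over grey bands for the middle 50% and 90% of the 11001 tested genes. Each of the 10 intervals crosses 0, and the points lie between -0.17 for Pnisr and 0.14 for Srrm1.

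Per kilobase of exon the genes spanned more than an order of magnitude. The counts were divided by the length of all annotated exons joined (GENCODE M21). Son stood highest with 3408 ± 586 normalized counts per kb in Control and 3676 ± 509 in cKO (SD, n = 3 each), followed by Srrm1 with 3291 ± 278 and 3610 ± 213, and these neighbours overlapped. Srrm2 (2242 ± 579 in Control) and Scaf11 (1849 ± 204) overlapped as well and lay below Srrm1 in each library. Arglu1 (972 ± 92.9), Rsrc2 (822 ± 118), Pnisr (631 ± 94.9) and Srek1 (490 ± 34.6) followed, each overlapping with the next. Clasrp (330 ± 31.7) and Rsrc1 (245 ± 6.06) were the lowest, each apart from its neighbours in all 6 libraries. Exons of Son, Srrm2 and Rsrc1 overlap exons of Donson, Elob and Shox2 on the other strand, and the sources used here do not say whether the counting used strand, so part of these counts may belong to the partner.

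**Figure D2:**
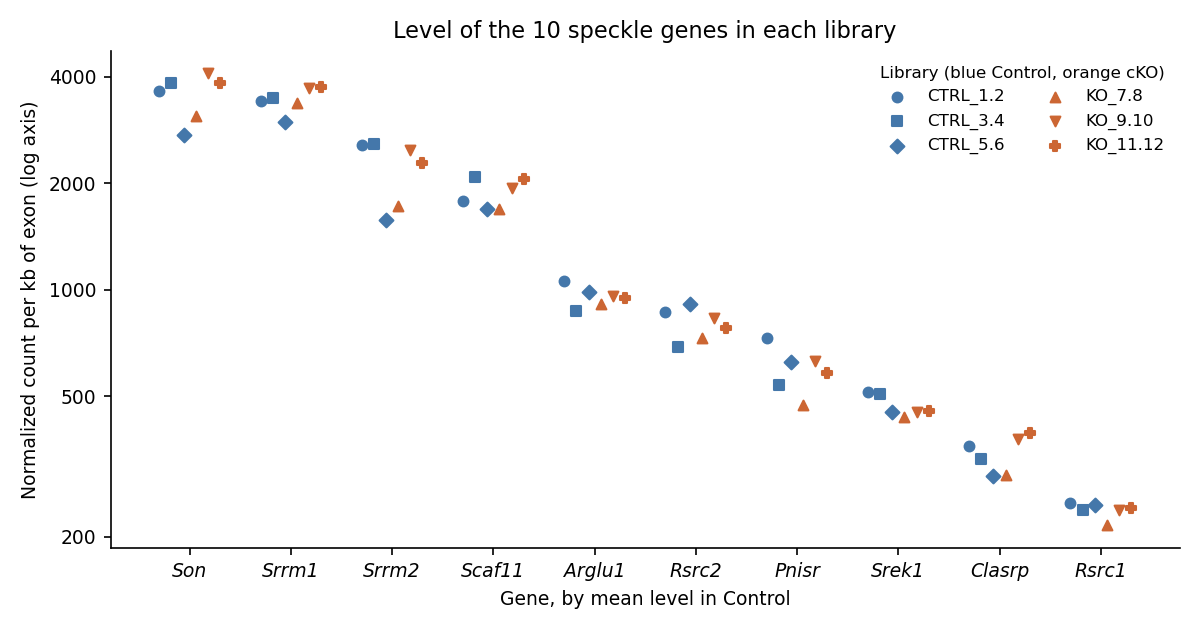
Normalized count per kb of exon (log axis) of each speckle gene in each of the 6 libraries, genes ordered by mean Control level, blue for Control and orange for cKO. The colours are mixed in each gene, from Son at 2740 to 4090 down to Rsrc1 at 216 to 250, and CTRL_5.6 and KO_7.8 are the low points of Son and Srrm2.

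The splicing of the same genes was then compared. rMATS, the program used by the authors, lists events of 5 classes: skipped exons (SE), mutually exclusive exons (MXE), alternative 3′ splice sites (A3SS), alternative 5′ splice sites (A5SS) and retained introns (RI). For each event it gives reads of an inclusion form (exon, segment or intron kept) and a skipping form, with 3 values per condition that carry no library names. The inclusion level (Ψ) is the share of the inclusion form after each form's reads are divided by its effective length. The test was run on events that averaged 20 reads or more in each condition, and a Differentially Spliced Variant (DSV) had an FDR under 0.01 and a difference in Ψ of at least 0.1.

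In contrast to the RNA levels, 4 DSVs were found in 4 of the speckle genes, 1 each in Pnisr, Son, Rsrc2 and Clasrp. They were 3.31% of the 121 tested events of the group, where 0.465% of all 55912 tested events were DSVs. Of the 9 speckle genes with a tested event 4 had a DSV, where 2.36% of 8189 genes did. The speckle genes had a median of 13 tested events each against 5 over all genes, so the share of genes is not on equal terms, and since the genes were chosen with results known these shares are a description only. With 1 of the 3 values of a condition left out, the Pnisr event stayed a DSV each time, while those of Son and Rsrc2 were lost without Control value 2 or 3 or cKO value 1 and that of Clasrp without cKO value 2 or 3. By limma on the log2 ratio of inclusion to skipping reads 0 of the 4 were DSVs, and 2 events over all genes. None of the 4 was of the SE class. Those of Son, Rsrc2 and Clasrp were shifts between neighbouring splice sites, while that of Pnisr, listed as A3SS, rests on a junction that also skips the exon before the segment. By class, the speckle genes had 3 DSVs among 14 A3SS events (0.584% of all tested) and 1 among 5 A5SS events (1.08%). They had 0 among 76 SE (0.495%), 0 among 21 MXE (0.25%) and 0 among 5 RI events (0.181%) by the quasi-binomial test with limma moderation, and 0 in these classes by limma on log ratios. At an unadjusted p under 0.05 these 3 classes had 12, 1 and 2 events of the group, where 8.78%, 11.5% and 9.02% of all tested SE, MXE and RI events were. The sums of the B cell and NK cell markers given above also separated the conditions, with Nkg7 the largest part of the NK sums. The part of such cells in the splicing differences was not tested.

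**Figure D3:**
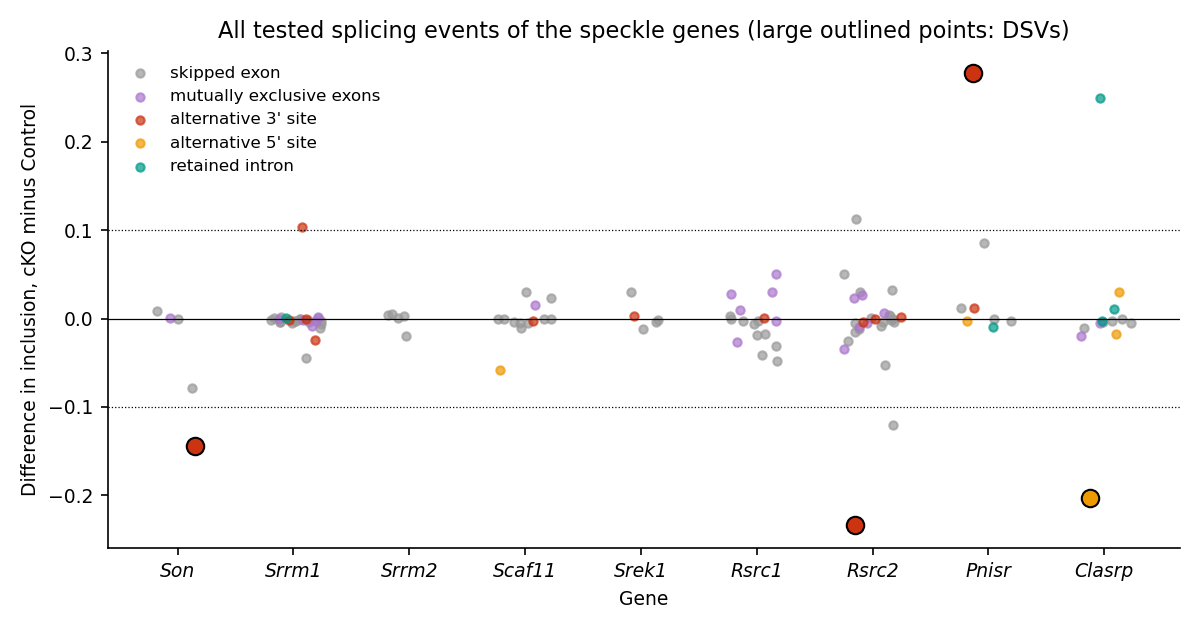
Difference in inclusion level (cKO minus Control) of each of the 121 tested events, by gene and coloured by event class, with dotted lines at -0.1 and 0.1 and the 4 DSVs as large outlined points. Most points lie near 0, and the DSVs of Son, Rsrc2 and Clasrp lie below the lower line while that of Pnisr lies at 0.28.

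The segments that shifted are shown because their length and last bases define the 2 forms. Each is written in the direction of the gene from transcripts of GENCODE M21 (GRCm38, the build the authors aligned to), with the alternative segment in capitals and the bases common to both forms, or intron where stated, in lower case.
Pnisr, chr4:21860820-21860907, plus strand, 58 bases and the start of the shorter exon: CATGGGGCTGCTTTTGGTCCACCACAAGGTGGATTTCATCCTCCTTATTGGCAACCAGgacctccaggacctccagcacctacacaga
Son, chr16:91678101-91678160, plus strand, 53 bases and the start of the shorter exon: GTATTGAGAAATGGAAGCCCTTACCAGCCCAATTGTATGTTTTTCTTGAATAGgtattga
Rsrc2, chr5:123740833-123740914, minus strand, 30 intron bases, 22 bases and the start of the shorter exon: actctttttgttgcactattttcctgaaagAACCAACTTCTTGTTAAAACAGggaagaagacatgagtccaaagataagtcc
Clasrp, chr7:19584760-19584823, minus strand, end of the shorter exon, 4 bases and the start of the intron of the longer form: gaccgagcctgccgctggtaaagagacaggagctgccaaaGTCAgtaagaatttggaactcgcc
The 3 longer 3′ segments end in AG, the last bases of an intron when the downstream site is used. In Clasrp the shorter exon is followed by GTCA and the longer one by GTAA, both beginning with the GT of a 5′ splice site. In Son, Rsrc2 and Clasrp the lengths (53, 22 and 4 bases) are no multiples of 3, so the 2 forms of each event differ in reading frame. The 58 bases of Pnisr are no multiple of 3 either, but the junction that lacks them also leaves out the 224-base exon before them.

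Pnisr showed the largest difference in Ψ among the tested events of the group. Ψ of its 58-base segment was 0.836, 0.674 and 0.657 in the 3 Control values and 1, 1 and 1 in the cKO values, a difference of 0.28 (FDR = 1.73e-05, quasi-binomial test moderated with limma). Inclusion reads numbered 164 in Control and 232 in cKO. The direct junction to the longer acceptor, past the 224-base exon, had only 4 and 6 reads. Most inclusion reads can thus come from transcripts that hold the 224-base exon, and the size of the difference depends on this definition of the event. The 2 conditions did not overlap, and the skipping form was absent from the cKO reads. Its junction had 11, 16 and 15 reads in Control and 0, 0 and 0 in cKO. The 42 Control reads were 23.6 per 10000 reads of the gene, and 0 among 19033 cKO reads of the gene allows up to 1.58 per 10000 (3 counts over the group, counting error only), at least 15-fold lower. This junction leaves out the upstream exon of 224 bases together with the segment. In sum these are 282 bases, a multiple of 3, so the form without both keeps the frame of the form that holds both.

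The same junction reads therefore enter the SE event of the 224-base exon (chr4:21859084-21859307), the tested SE event of smallest p in the group. Its Ψ was 0.932, 0.911 and 0.902 in Control and 1, 1 and 1 in cKO (FDR = 0.000545), and it was no DSV because the difference of 0.09 stayed under 0.1. The pair of events is 1 observation of 1 junction. A pair of further events of these pieces (named after their values were seen) did not pass the test. Where the 224-base exon was joined to the longer or the shorter acceptor, the segment had a Control Ψ of 0.960 ± 0.012 and a cKO Ψ of 0.972 ± 0.015 (SD over 3 values, FDR = 0.8), and where the exon was measured against the junction to the longer acceptor, Ψ was 0.995 ± 0.0083 and 0.993 ± 0.0016 (FDR = 0.863). The exon and the segment lie in coding sequence in the 3 protein-coding transcripts of Pnisr that hold them, of 13 annotated transcripts in all.

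Son shifted toward its shorter last exon. Ψ of the 53-base segment was 0.481, 0.572 and 0.566 in Control and 0.366, 0.4 and 0.42 in cKO, without overlap (difference -0.14, FDR = 0.00123). The depth here was good, with 584 inclusion and 368 skipping reads in Control and 693 and 766 in cKO. Per 10000 reads of the gene the longer form had 40.6 reads in Control and 38 in cKO, and the shorter form 25.6 and 42. So the shorter form had more reads in cKO while the longer form differed little. The segment decides where the protein ends: with it the coding sequence stops at chr16:91678157 (Son-202 and Son-205), and without it in Son-203 it runs on to chr16:91678309.

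The giant exon of Son, 5970 bases (chr16:91654611-91660580) that encode most of the protein, was skipped in more reads in cKO, an event named after its values were seen. The skipping junction had 1, 2 and 1 reads in Control and 20, 6 and 11 in cKO, or 0.278 and 2.03 per 10000 reads of the gene. Ψ was 0.991, 0.984 and 0.987 in Control and 0.838, 0.960 and 0.927 in cKO without overlap, but the FDR was 0.113. Its length is a multiple of 3. This exon is longer than the reads by far, so the many reads inside it come from any transcript that keeps it.

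Rsrc2 shifted in the same direction at its own alternative acceptor. Ψ of the 22-base segment was 0.489, 0.544 and 0.584 in Control and 0.235, 0.326 and 0.355 in cKO, again without overlap (difference -0.23, FDR = 0.00299). The longer form had 102 reads per 10000 of the gene in Control and 71.5 in cKO, and the shorter form 76.3 and 136. The segment is coding sequence in 6 of the 12 transcripts that hold it, of 23 annotated for the gene. This event counts the shorter site only where it is joined to the 78-base exon upstream. Joined to the exon at chr5:123743638-123743678, the shorter site had 886 reads in Control and 950 in cKO. The longer form had 3 and 5 there (FDR = 0.905). Against those 886 and 950 reads, Ψ of the 78-base exon was 0.207, 0.220 and 0.164 in Control. It was 0.232, 0.228 and 0.283 in cKO, without overlap (FDR = 0.396). Both were named after their values were seen. The other Rsrc2 events of largest difference had few reads and overlapping values. Ψ of a 75-base exon was 1, 1 and 0.936 in Control and 0.896, 0.678 and 1 in cKO (FDR = 0.692), and Ψ of a 99-base exon was 0.199, 0.445 and 0.392 against 0.497, 0.410 and 0.468 (FDR = 0.692). In the MXE event of largest difference of Rsrc2, Ψ was 0.201, 0.082 and 0.146 in Control and 0.081, 0.095 and 0.151 in cKO (FDR = 0.796).

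Clasrp shifted between 5′ splice sites that are 4 bases apart. Ψ of the longer exon was 0.374, 0.415 and 0.377 in Control and 0.241, 0.178 and 0.138 in cKO, without overlap (difference -0.20, FDR = 0.000414). The longer form had 222 reads per 10000 of the gene in Control and 103 in cKO, and the shorter form 339 and 466. The 4 bases lie in 5 of 13 annotated transcripts, 4 of the nonsense-mediated decay class and 1 of the retained intron class. The 1 protein-coding transcript does not hold them. In 4 of the 5 (Clasrp-205, Clasrp-206, Clasrp-207 and Clasrp-208) an exon also spans the whole 249-base intron behind these bases. Clasrp-209, of the nonsense-mediated decay class, is the only one that holds the 4 bases without the whole intron.

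The intron behind this exon, 249 bases from the longer site (chr7:19584531-19584779), had the largest difference among RI events of the group. Measured against the junction of the longer site, its Ψ was 0.230, 0.148 and 0.161 in Control and 0.337, 0.441 and 0.509 in cKO (difference 0.25), with an FDR of 0.0455 that misses 0.01. Measured against the junction of the shorter exon, Ψ was 0.156, 0.111 and 0.110 in Control and 0.138, 0.140 and 0.133 in cKO (FDR = 0.976). The intron reads were 126 per 10000 of the gene in Control and 187 in cKO, beside the junction of the longer site at 212 and 90.5. The 2 measures thus share the intron and differ in the junction they are set against, and the junction of the longer site is the one that the DSV counts.

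**Figure D4:**
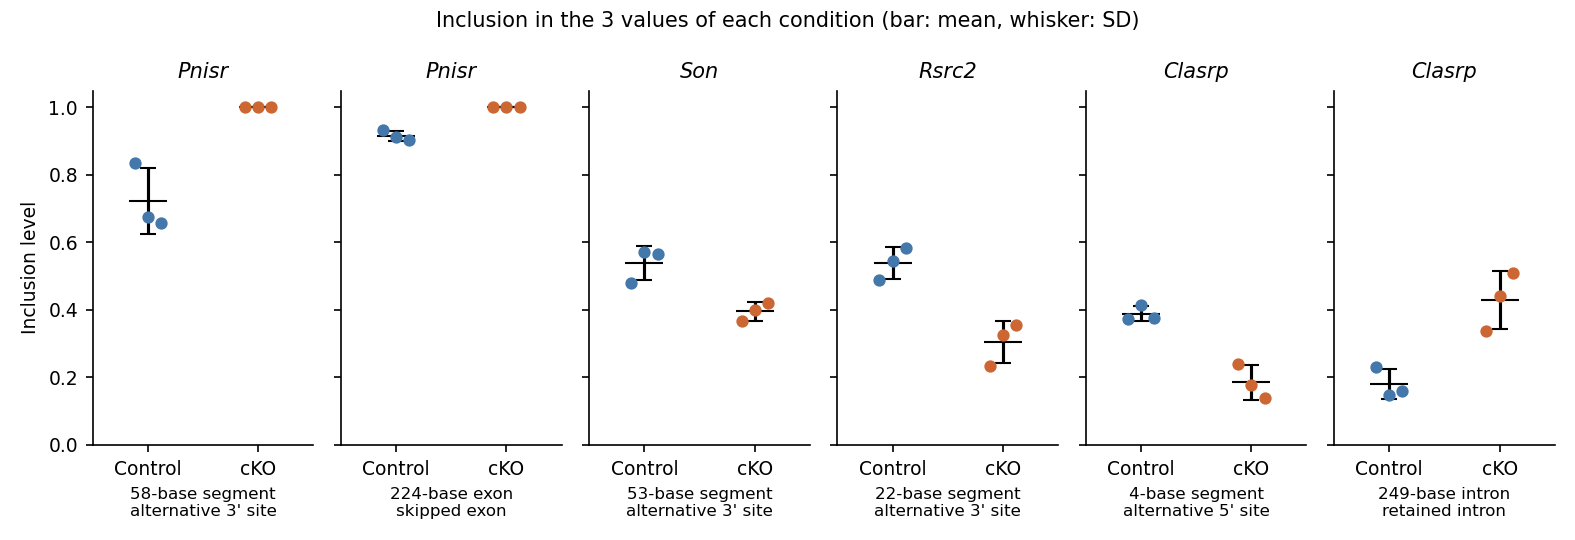
Inclusion level of the 4 DSVs, of the 224-base exon of Pnisr and of the 249-base intron of Clasrp, with the 3 values of each condition as points, the mean as a bar and the SD as a whisker. The conditions do not overlap in any panel, Ψ being 1 in each cKO value of Pnisr and lower in cKO for Son, Rsrc2 and the 4-base segment of Clasrp.

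**Figure D5:**
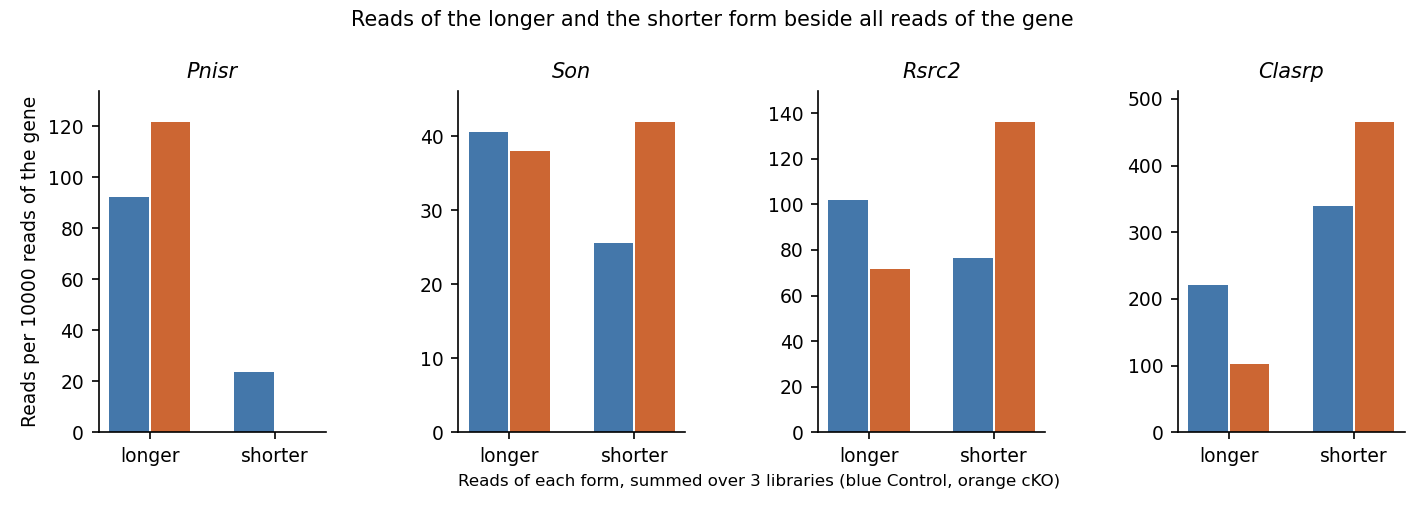
Reads of the longer and the shorter form per 10000 reads of the gene, summed over the 3 libraries of each condition, for the 4 DSVs (bars from 0, no error since sums have no replicates). The shorter form is higher in cKO in Son (25.6 and 42), Rsrc2 (76.3 and 136) and Clasrp (339 and 466), and at 0 in cKO in Pnisr (23.6 in Control).

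The other speckle genes had no DSV. In Scaf11 the tested event of smallest p was a 169-base exon (chr15:96438182-96438350) that is annotated only in Scaf11-205, a transcript of the nonsense-mediated decay class. It begins with coding sequence that reaches a stop codon within the exon, shown here from its first base with the stop codon in capitals (chr15:96438318-96438350, minus strand).
Scaf11: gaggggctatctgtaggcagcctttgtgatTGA
Its Ψ was 0.020, 0.009 and 0.023 in Control and 0.003, 0.008 and 0.010 in cKO (FDR = 0.134), with 102 inclusion reads in Control and 56 in cKO. The lowest Control value and the highest cKO value overlapped. A 48-base A5SS segment of Scaf11 had Ψ of 0.368, 0.383 and 0.335 in Control and 0.266, 0.293 and 0.353 in cKO (FDR = 0.606).

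In Srek1 a 124-base exon (chr13:103764296-103764419) rarely used in Control had Ψ of 0.022, 0.022 and 0.018 there and 0.042, 0.064 and 0.045 in cKO. The values did not overlap but the FDR was 0.16, with 31 inclusion reads in Control and 76 in cKO. In Rsrc1 a 69-base coding exon was kept in all 417 Control reads and skipped in 2, 1 and 8 cKO reads, with Ψ of 0.973, 0.990 and 0.944 (FDR = 0.312). An MXE event of Rsrc1 with a 52-base exon had Ψ of 0, 0 and 0 in Control and 0.025, 0.025 and 0.102 in cKO (FDR = 0.302), and another with a 126-base exon 0.778, 0.822 and 0.733 against 0.830, 0.826 and 0.765 (FDR = 0.755).

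Most events of Srrm1 and Srrm2 were measured at much greater depth, and none was a DSV. The 271-base exon of Srrm2 had Ψ of 0.864, 0.884 and 0.808 in Control and 0.790, 0.850 and 0.858 in cKO (FDR = 0.431) over 22941 and 25176 inclusion reads. A 282-base exon of Srrm1 (chr4:135345196-135345477), which holds an annotated stop codon, had 0 inclusion reads in Control and 11 in cKO beside 5072 and 6582 skipping reads (FDR = 0.399). The A3SS event of largest difference that was not called in the group, a 3-base segment of Srrm1, had fewer reads (94 inclusion and 56 skipping in Control, 196 and 79 in cKO) and was named after its values were seen. Its Ψ was 0.634, 0.649 and 0.551 in Control and 0.768, 0.659 and 0.719 in cKO, without overlap (difference 0.10, FDR = 0.736). Arglu1 had 1 SE and 1 RI event, both below the read minimum. The retained intron of Arglu1 (2280 bases) had 20 inclusion and 14 skipping reads in Control and 4 and 9 in cKO, too few for a test.

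Over all 76 tested SE events of the group, 54 had a lower and 22 a higher mean Ψ in cKO, with a median difference of -0.0024 (-0.00176 over all tested SE events). The share of lower values over all tested SE events was not counted. The 76 are not separate observations, since events of a gene can share reads. For example, a 115-base and a 303-base exon of Srek1 both list 4 skipping reads in cKO value 2 and 0 in each other value. In 65 of the 76, Ψ in Control was above 0.95 or below 0.05, so that little room was left in 1 direction. The median size of the difference was 0.00428 against 0.00559 over all SE events, and 0.00353 against 0.0112 for A3SS. Thus the 3 A3SS DSVs stood among 14 events most of which hardly differed. No annotated exon of another gene overlapped the segments of the 4 DSVs. The microRNA gene Mir7654 overlaps Arglu1 on the same strand.

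Genes that work with the speckle proteins were examined by lists. Of 13 SR and TRA2 genes 0 passed the test by limma, edgeR and DESeq2, and 0 had an unadjusted p under 0.05. Their median log2 fold change was -0.00, and Srsf6, an SR protein, had the smallest p (log2 fold change -0.47, adjusted p = 0.376), before Tra2b at 0.17 (adjusted p = 0.545) and Tra2a at -0.23 (adjusted p = 0.561). Of 17 kinases and cyclins 1 rose and 0 fell (4 with an unadjusted p under 0.05, median -0.05). It was Dyrk3, a kinase known to dissolve speckles when overexpressed, with 17, 23 and 33 normalized counts in Control and 482, 554 and 619 in cKO (log2 fold change 4.48, adjusted p = 0.00146). Srpk1, a kinase of the RS domain, was at -0.42 (adjusted p = 0.126) and Cdk11b at 0.34 (adjusted p = 0.144), both called by DESeq2 but not by limma or edgeR.

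Of 40 other RS-domain and speckle genes 0 rose and 1 fell, Rbmx, with 5474, 5025 and 4592 normalized counts in Control and 2765, 3152 and 2876 in cKO (log2 fold change -0.78, adjusted p = 0.0248). Its adjusted p rose above 0.05 when any 1 of 5 libraries was left out (0.0561 to 0.157), KO_7.8 being the exception. Sart1, a protein of the tri-snRNP, was at 0.55 (adjusted p = 0.0506, and 3.73e-06 by DESeq2) and Nktr at -0.29 (adjusted p = 0.308), and the median of this list was 0.01. Malat1, a long noncoding RNA kept in speckles, had 82011, 67387 and 74662 in Control and 29440, 61397 and 50341 in cKO, each cKO library below each Control library, but the spread was large (log2 fold change -0.73, adjusted p = 0.238). Neat1, the RNA of paraspeckles, was at -0.58 (adjusted p = 0.605). In splicing, 0 of 84 tested events of the SR and TRA2 genes were DSVs, 3 of 123 of the kinases and cyclins, and 6 of 388 of the other RS-domain genes, beside 0.465% of all tested events.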

How the data were processed

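Paired reads were trimmed (cutadapt), aligned to GRCm38, named mm10 as well (STAR), counted (featureCounts) and scaled (DESeq2) by the authors. The annotation release they used is not stated in what was read here. The deposited expression values are a normalized signal: each library's counts over its size factor. Multiplied back, 100% of values were whole reads within 0.01 reads. The other deposited expression table holds the authors' log2 fold changes and p-values and was not used. The deposited rMATS tables hold inclusion and skipping counts from junctions and exons, with effective lengths. The authors' own p-values and FDR in them were not used.

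The members and lists were chosen with earlier results of these data known. The 11001 genes that had a symbol and averaged 100 or more in Control or cKO were compared by limma 3.58.1 under R 4.3.3 as log2(value + 1), adjusted by Benjamini-Hochberg over all of them, so that fold changes of low genes are understated. Events were tested with a quasi-binomial model of inclusion against skipping reads, the dispersion moderated by limma (floor 1, prior from events with 5 or more mean reads of the rarer form), adjusted within each class. The scripts were tested on simulated data. Named were all members, Cd2bp2, up to 3 genes of smallest p per list, every member DSV, the event of smallest p per member and the 3 member events of largest difference per class. Alternatives were another pseudocount, filter, scaling, moderation and test (edgeR 4.0.16, DESeq2 1.42.0), other read minimums, and leaving out libraries. The 95% intervals of fold changes are from limma and reflect the spread among libraries. The limit from counts given for the Pnisr junction covers counting error only, since reads without molecular identifiers are not independent molecules. Libraries of a group differed beyond sampling noise (chi-square per gene of at least 23.7). Gene positions, transcripts and sequences are from GENCODE M21, which may not be the release the authors used.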

Additional observations from a re-analysis of the deposited data

How the results depend on the processing

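In expression, 0 of the 10 genes passed an adjusted p of 0.05 in each of the 15 alternatives run, the 1 added after seeing the data (without both CTRL_5.6 and KO_7.8) included. The direction of some small fold changes turned when a library was left out. Without CTRL_1.2, Srrm2 was at 0.0867 and Arglu1 at 0.0163. Without CTRL_3.4, Srrm2 was at 0.0898. Without CTRL_5.6, Son was at -0.0345, Rsrc2 at 0.0138 and Scaf11 at -0.0253. Without KO_7.8, Srrm2 was at 0.125, and without KO_11.12, Scaf11 was at -0.0221. Without both CTRL_5.6 and KO_7.8, Rsrc2 was at 0.0618. All cKO libraries lay above or below all Control libraries in 1 gene after quantile normalization (25.4% of all tested genes), in 0 to 3 genes when 1 library was left out (28.8% to 40.3% of all tested genes), and in 4 without both CTRL_5.6 and KO_7.8 (57% of all tested genes). Of the named partner genes, Srsf6 (-0.515, adjusted p = 0.00266), Cdk11b (0.394, 0.0158) and Sart1 (0.557, 0.00151) also passed by limma without both libraries, beside Dyrk3 and Rbmx. Tra2b, Tra2a, Srpk1, Nktr, Malat1 and Neat1 did not. Sart1 also passed without KO_7.8 alone (0.0468).

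The 4 DSVs were the same under read minimums of 10 and 50 and with the prior over all tested events. With limma on the log2 ratio of inclusion to skipping reads 0 were called, and 2 over all genes; FDR values were then 0.0232 for Pnisr, 0.212 for Clasrp, 0.229 for Rsrc2 and 0.333 for Son. Leaving out 1 of the 3 values of a condition gave 2 to 4 DSVs. Pnisr stayed a DSV each time. Son and Rsrc2 were lost without Control value 2 or 3 or cKO value 1 (FDR 0.012 to 0.139), and Clasrp without cKO value 2 or 3 (0.0109 and 0.0243). The difference in the Srrm2 exon turned to 0.0015 without cKO value 1. No paired analysis was possible because the groups share no replicate numbers. Depth limits the events with under 100 reads per form, among them the Pnisr junction, the giant exon of Son and Arglu1.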

Other observations

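The 9 DSVs in the lists of partner genes, named here after their values were seen, lay in 7 genes. In Rbm39, an RS-domain factor with a U2AF-like RNA binding part, a 274-base exon had a Control Ψ of 0.0333 ± 0.0088 and a cKO Ψ of 0.165 ± 0.0128 (SD over the 3 values, FDR = 1.33e-17, quasi-binomial test moderated with limma). In Thrap3, an 88-base exon had a Control Ψ of 0.726 ± 0.0226 and a cKO Ψ of 0.529 ± 0.013 (FDR = 1.68e-13). Inclusion was higher in cKO in a 155-base exon of Cdk11b (0.26 and 0.444, FDR = 1.15e-06) and a 118-base exon of Rbm25 (0.222 and 0.335, FDR = 1.99e-06). It was lower in a 59-base exon of Clk4, the kinase that Clasrp is named for (0.388 and 0.261, FDR = 0.000271), and in a 120-base exon of Acin1 (0.309 and 0.206, FDR = 5.47e-06). The others were an A3SS event of Acin1, an A5SS event of Ccnl1 and an MXE event of Thrap3.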
